A study of Mus musculus with 14 samples.

Results

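Overexpression of Rnaseh1 in mouse oocytes with a non-surrounded nucleolus (NSN) was compared with overexpression of the red fluorescent protein mCherry in oocytes of the same kind. The comparison rests on 4 of the 14 libraries of the series, 2 that received Rnaseh1 and 2 that received mCherry. They were chosen by their labels alone. Of 35389 gene identifiers, 12736 had a TPM (the share of one gene among all transcripts, corrected for length and scaled to a fixed total) of at least 1 in at least 2 of the 8 libraries of their table and were tested.

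The study overexpressed Rnaseh1 in oocytes to ask what the loss of R-loops does to chromatin and transcription as the oocyte matures. Each of its 7 groups had 2 libraries of polyadenylated RNA. Beside the NSN groups used here, oocytes with a surrounded nucleolus (SN) received Rnaseh1 or mCherry in the same table, and a separate rescue set of 6 libraries held mCherry, Rnaseh1, and Rnaseh1 with Supt6. The rescue labels give no stage, and the group with Supt6 was used here only to estimate the spread. The labels name neither the strain, the age of the females, the way the overexpression was made, nor whether libraries of one group stem from separate animals. The p-values therefore measure the spread between these libraries, which may be technical.

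An R-loop forms when a new RNA pairs with its DNA template and leaves the other DNA strand single. RNase H1, the protein of Rnaseh1, cuts the RNA of such hybrids in the nucleus, and a mitochondrial form of it is needed to replicate mitochondrial DNA. An NSN oocyte still transcribes and stores the RNA that the egg will use, whereas in an SN oocyte chromatin has closed around the nucleolus and transcription has largely stopped.

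The Rnaseh1 libraries of the NSN group were not alike, so each is given apart throughout. Replicate 2 had 10036 genes with a TPM of at least 1, against 11811 in Rnaseh1 replicate 1 and 11482 and 11620 in the mCherry libraries. Its 50 most abundant genes took 32.5% of all TPM, against 22.7% in replicate 1 and 23.4% and 23.5% with mCherry. The difference between replicate 2 and replicate 1 had an SD over genes of 1.28 on the log2 scale with Rnaseh1 and of 0.617 with mCherry. All 12 oocyte markers had at least 1 TPM in each of the 4 NSN libraries, and their summed level ran from 25850 to 29260 TPM. The like sums hid unlike members. In replicate 2 Dppa3 alone made up 21364 of 26980 TPM, against 9862 to 12045 TPM in the other libraries. Bmp15 and Ooep were also above both controls there. The other oocyte markers were below both in replicate 2, such as H1foo at 1345 TPM against 5664 and 3947. Of 12 markers of granulosa or cumulus cells, the somatic cells that surround the oocyte, 2 or 3 reached 1 TPM, and Foxl2, Amh, Wt1 and Amhr2 were listed at 0 in all 4 libraries. Their summed level was 53.4 and 44.1 TPM with mCherry and 41.2 and 17.2 TPM with Rnaseh1, most of it Cyp19a1. Of 12 markers of other ovarian cells 1 or 2 reached 1 TPM, with a summed level of 13.8 and 12.7 TPM with mCherry and 12.2 and 2.81 TPM with Rnaseh1. How many reads lie behind a TPM value is unknown here, so counting error cannot be stated.

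Rnaseh1 itself (ENSMUSG00000020630.9, chromosome 12, 28649602 to 28659589, plus strand, GRCm38) was the most direct check of the labels. It stood at 137 and 108 TPM with mCherry, at 745 TPM in Rnaseh1 replicate 1 and at 229 TPM in replicate 2. Pairs of values give replicate 1 first here and throughout. Both Rnaseh1 libraries lay above both controls, replicate 1 at 6.1 times and replicate 2 at 1.87 times the mCherry mean. In SN oocytes the same gene stood at 80.96 and 131 TPM with mCherry and 1361 and 1083 TPM with Rnaseh1, and in the rescue set at 125 and 114 against 1243 and 625 TPM. NSN replicate 2 thus had the least Rnaseh1 RNA of the 4 Rnaseh1 libraries of its table. The rescue table was normalized on its own, so levels are compared within it only. The log2 difference in NSN oocytes was 1.76 (SE 0.57, n = 2 against 2) and did not pass over all genes (limma adjusted p = 0.76, unadjusted p = 0.016). The SN effect was 1.79 larger (SE 0.8), and this difference between stages did not pass either (limma unadjusted p = 0.058, adjusted p = 1.0). RNA of the gene itself and of the introduced copy cannot be told apart in these values.

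The promoters of 3 genes described next are shown because the enzyme acts on RNA:DNA hybrids, whose formation is favoured by runs of G on the strand of the gene. They come from RefSeq (GRCm38.p6), run 5′ to 3′ on the strand of the gene from 250 bases before the start to 50 after it, and have each run of 4 or more G in capitals. The first is that of Mtrf1l (chr10:5823894-5824193, minus strand), with a GC content of 67.3%, 5 such runs and 20 CpG sites. The second is that of Rpp40 (chr13:35906298-35906597, minus strand), with 61.3%, 5 runs and 12 CpG sites. The third is that of Khdc3 (chr9:73102148-73102447, plus strand), with 52.7%, 3 runs and 0 CpG sites. In the GENCODE annotation Khdc3 spans 73101836 to 73104438, so this window lies inside the gene and holds only for the RefSeq start. Most of these runs lie before the start: 1 of the 5 in Mtrf1l, 0 of the 5 in Rpp40 and 1 of the 3 in Khdc3 lie after it.
Mtrf1l: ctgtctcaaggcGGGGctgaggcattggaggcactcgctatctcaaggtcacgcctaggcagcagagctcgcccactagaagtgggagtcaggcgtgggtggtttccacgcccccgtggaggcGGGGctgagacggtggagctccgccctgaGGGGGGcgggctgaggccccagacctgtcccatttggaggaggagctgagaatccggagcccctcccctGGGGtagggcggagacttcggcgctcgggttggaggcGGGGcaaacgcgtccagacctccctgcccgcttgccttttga
Rpp40: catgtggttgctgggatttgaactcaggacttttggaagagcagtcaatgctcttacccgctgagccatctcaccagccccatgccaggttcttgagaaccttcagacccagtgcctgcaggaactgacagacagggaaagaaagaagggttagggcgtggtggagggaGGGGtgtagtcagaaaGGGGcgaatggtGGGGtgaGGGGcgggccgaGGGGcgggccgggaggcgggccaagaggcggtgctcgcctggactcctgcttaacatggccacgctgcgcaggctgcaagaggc
Khdc3: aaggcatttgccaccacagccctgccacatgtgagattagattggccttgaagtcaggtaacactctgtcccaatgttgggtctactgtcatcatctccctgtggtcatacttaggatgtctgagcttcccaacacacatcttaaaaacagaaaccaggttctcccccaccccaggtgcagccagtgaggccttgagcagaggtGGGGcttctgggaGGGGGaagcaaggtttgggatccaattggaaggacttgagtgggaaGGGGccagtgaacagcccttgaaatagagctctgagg
The motif GGGG stood on the strand of the gene in 76.4% and on the other strand in 75.2% of 9445 promoters of tested genes of the same length, so its presence does not set these 3 apart. Over those promoters the median GC content was 59.7% and the median number of CpG sites 20.

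Mtrf1l (ENSMUSG00000019774.8, chromosome 10, 5811887 to 5823910, minus strand) encodes a release factor that ends translation in mitochondria. It stood at 1.69 and 3.30 TPM with mCherry and at 15.6 and 10.7 TPM with Rnaseh1. The groups were apart by 1.45 on the log2(TPM + 1) scale, measured from the lowest Rnaseh1 to the highest mCherry library, and no other gene that met the naming rule was farther apart among those higher with Rnaseh1. The log2 difference was 2.04 (SE 0.49, limma adjusted p = 0.76). Rnaseh1 was also above mCherry in SN oocytes, at 21.8 and 32.6 against 8.28 and 4.74 TPM, and in the rescue set, at 9.42 and 4.18 against 3.56 and 0.58 TPM. The rescue difference of 1.45 (SE 0.56) just missed the threshold (limma adjusted p = 0.054). It passed after median centring (2.04, adjusted p = 0.018), quantile normalization and removal of a trend with GC content. The rescue difference also hung on single libraries. It was 0.69 without rescue mCherry replicate 2 and 2.22 without rescue mCherry replicate 1. Without rescue Rnaseh1 replicate 1 it was 0.95, and without rescue Rnaseh1 replicate 2 it was 1.96.

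Btbd1 (ENSMUSG00000025103.8, chromosome 7, 81792074 to 81829431, minus strand) encodes a BTB-domain protein that binds the ubiquitin-ligase scaffold Cul3. It stood at 5.53 and 8.21 TPM with mCherry and at 20.8 and 45.8 TPM with Rnaseh1, and here replicate 2 was the higher. The log2 difference was 2.04 (SE 0.48, limma adjusted p = 0.76). In SN oocytes Btbd1 was at 25.1 and 25.4 TPM against 11.2 and 7.97. It rose in the rescue set from 11.5 and 9.97 to 43.6 and 28.6 TPM, a log2 difference of 1.63 (SE 0.23, limma adjusted p = 0.00065). Every Rnaseh1 library of the 3 settings lay above every mCherry library of the same setting.

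Khdc3 (ENSMUSG00000092622.8, chromosome 9, 73101836 to 73104438, plus strand), also known as Filia, encodes a member of the subcortical maternal complex, which the egg needs for the first cleavages. It stood at 918 and 642 TPM with mCherry, at 362 TPM in Rnaseh1 replicate 1 and at 23.8 TPM in replicate 2. Both were below the controls, but replicate 1 was at 0.464 and replicate 2 at 0.0305 of the mCherry mean. The log2 difference was -3.02 (SE 1.14, limma adjusted p = 0.76), where the SE takes in the spread within the SN groups as well. The SN libraries did not overlap either, at 117 and 143 TPM with Rnaseh1 against 309.7 and 1022. In the rescue set it fell from 38.7 and 32.7 to 24.1 and 18.1 TPM (-0.74, SE 0.25, limma adjusted p = 0.035). That fall depended on the scaling: the difference was -0.15 after median centring (adjusted p = 0.61), -0.1 after quantile normalization (0.76) and 0.93 on the other side after removal of a GC trend (0.017).

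**Figure D1:**
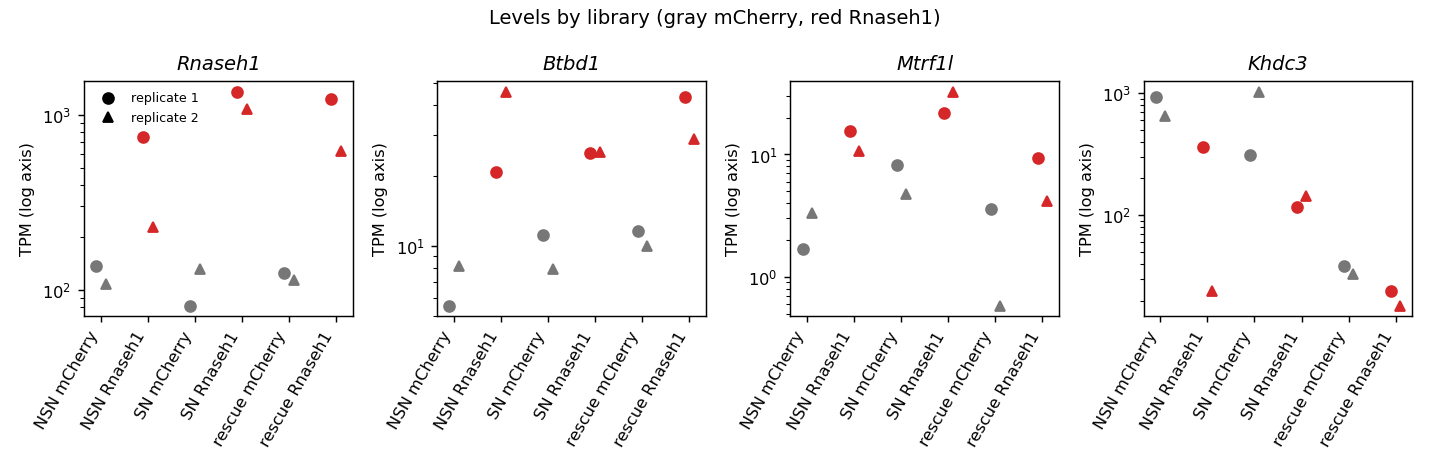
TPM (log axis) of Rnaseh1, Btbd1, Mtrf1l and Khdc3 in each library of the NSN, SN and rescue groups; each point is 1 library, gray with mCherry and red with Rnaseh1, circles replicate 1 and triangles replicate 2. In NSN oocytes Rnaseh1 itself was at 745 TPM in replicate 1 and 229 TPM in replicate 2, and Khdc3 at 362 and 23.8 TPM.

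Over all 12736 genes the NSN comparison called none. At a Benjamini-Hochberg adjusted p under 0.05, limma called 0 genes higher and 0 lower (0.0% each), and the smallest adjusted p was 0.755. An unadjusted p under 0.05 was reached by 142 genes higher with Rnaseh1 (1.11%) and 211 lower (1.66%). The fits with the replicate number as a block, with library weights and with robust moderation also called 0 genes (251, 264 and 342 at an unadjusted p under 0.05). Both libraries of a group got the same weight (0.3311 for each NSN Rnaseh1 library), so the weights could not set replicate 2 apart. Without Rnaseh1 replicate 1 limma called 99 genes higher (0.794% of 12474 tested) and 1053 lower (8.44%), with a lone library assumed to vary like the other groups, and without replicate 2 it called 0, with 217 at an unadjusted p under 0.05. In the rescue set 83.7% of those higher that were tested rose and 75.5% of those lower fell (beside 21% and 45.9% of all genes shared by the NSN and rescue tables). After median centring these shares were 90.7% and 52.8% (34.8% and 30.7% of all genes), and after removal of a GC trend 80.2% and 48.2% (28.3% and 30%). With 2 libraries a group, an exact permutation test of a single gene cannot go below p = 0.333, two-sided. The median SE of a gene was 0.529 on the log2 scale. The median gene stood at -0.29 against mCherry, made up of 0.0104 in replicate 1 and -0.596 in replicate 2. TPM are shares, so a lower median can stand beside a few genes that take more of the total, and fewer oocytes and less RNA per oocyte cannot be told apart in such values.

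The Rnaseh1 and mCherry libraries did not overlap for 1312 genes higher (10.3%) and 2876 lower (22.6%) with Rnaseh1. This split depended on the scaling: 31.3% of these genes were higher as deposited, 54.0% after median centring, 50.5% after quantile normalization and 49.8% after removal of a trend with GC content. Those scalings moved the median of all genes from -0.29 to 0.03, 0.01 and -0.01. A distance of at least 1 on the log2 scale, which is 2-fold in TPM + 1, separated the groups for 65 genes higher (0.51%) and 66 lower (0.518%). Of these, 27 and 49 were protein coding. The even split held only as deposited. After median centring 102 genes higher and 29 lower were this far apart, after quantile normalization 88 and 35, and after removal of a GC trend 94 and 34. The genes described next were picked for this distance, so their distance and their adjusted p of 0.76 only describe them.

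The 12 named genes that stood farthest above mCherry were Mtrf1l, Sval3, Chpt1, Ctnna2, Immp2l, Btbd1, Ikzf5, Eaf2, Uts2b, Trav21-dv12, Slc4a10 and Shroom3, apart by 1.05 to 1.45. Immp2l, a subunit of the peptidase that trims proteins of the inner mitochondrial membrane, stood at 9.30 and 11.03 TPM with mCherry and 27.7 and 40.4 TPM with Rnaseh1. Eaf2, a partner of the ELL elongation factors of RNA polymerase II, was at 1.52 and 3.20 against 8.48 and 8.53 TPM, so its Rnaseh1 libraries differed far less than its controls did. Chpt1, which makes phosphatidylcholine, was at 1.82 and 1.45 against 6.05 and 6.49 TPM. For Eaf2 and Chpt1 the Rnaseh1 libraries were nearly level with each other.

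The remaining genes of this set had their highest value in replicate 2. Ikzf5, an Ikaros-family zinc finger gene, stood at 0.86 and 1.63 TPM with mCherry, 5.07 TPM in replicate 1 and 12.02 TPM in replicate 2. Slc4a10, a sodium and bicarbonate transporter, was at 1.73 and 1.58 against 4.68 and 14.8 TPM, and Shroom3, which shapes epithelial cells through actin, at 1.44 and 9.15 against 20.1 and 33.4 TPM. Uts2b, a peptide hormone gene, was at 1.98 and 3.34 against 8.79 and 14.9 TPM, and Ctnna2, an alpha-catenin, at 0.39 and 1.85 against 6.12 and 7.80 TPM. Sval3 was listed at 0 in both mCherry libraries and stood at 1.5 and 12 TPM with Rnaseh1, so no fold is given. The T cell receptor segment Trav21-dv12 was listed at 0 in one control and at 2.55 TPM in the other, against 6.50 and 6.56 TPM.

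In the rescue set, whose libraries had no part in the choice, 7 of these 12 genes rose and 0 fell with Rnaseh1, beside 20.3% of all genes that rose and 46.2% that fell there (2608 and 5945 of 12859 genes). The background split was 4297 and 3894 after median centring, 4223 and 3958 after quantile normalization and 3476 and 3638 after removal of a GC trend, and the median of all genes moved from -0.52 to 0.06, 0.05 and -0.01. The 7 were Btbd1, Sval3, Chpt1, Immp2l, Eaf2, Uts2b and Slc4a10, of which Chpt1 and Eaf2 did not pass once a GC trend was removed (limma adjusted p = 0.095 and 0.14). Shroom3 stood at -0.08 as deposited and passed on the higher side under the other 3 scalings, at 0.51, 0.67 and 1.64 (limma adjusted p = 0.031, 0.011 and 0.00019). Uts2b rose by 3.22 (limma adjusted p = 6.7e-05) and Immp2l by 1.62 (limma adjusted p = 0.00018). In SN oocytes 6 of the 12 had Rnaseh1 libraries above both mCherry libraries, beside 18.9% of all genes, and 0 had them below, beside 31.7%. The median GC content of the 12 was 43.6%, against 48.1% for all tested genes.

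The 12 named genes that stood farthest below mCherry were Sbf1, Rpp40, Nqo2, Cln3, Ptprt, Polg, Lars, Arl6ip4, Rexo5, Tmem192, Pwp1 and Tmem234, apart by 1.12 to 2.54. Sbf1 (chromosome 15, 89288236 to 89315311, minus strand), which encodes the inactive myotubularin relative MTMR5, stood at 7.54 and 8.19 TPM with mCherry, at 0.47 TPM in replicate 1 and listed at 0 in replicate 2. Its log2 difference was -2.87 (SE 0.4, limma adjusted p = 0.76). All 4 SN libraries held it at 0.33 TPM or less, whichever protein they received, and in the rescue set it fell from 6.52 and 13.7 to 0.02 and 1.63 TPM (-2.68, limma adjusted p = 0.0037). Among the 8 libraries of its table, Sbf1 thus reached 1 TPM in the 2 NSN mCherry libraries and in no other. It therefore passed the filter only through the group in which it was high, and its NSN values only describe it.

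Rpp40 (chromosome 13, 35893472 to 35906359, minus strand) encodes a protein of RNase P, which trims transfer RNAs, and of the related RNase MRP. It stood at 7.94 and 7.95 TPM with mCherry and at 1.66 and 1.37 TPM with Rnaseh1, with little spread in either group (log2 difference -1.83, SE 0.4). In SN oocytes all 4 libraries lay between 3.16 and 3.97 TPM and the groups overlapped, and in the rescue set it did not pass (-0.61, limma adjusted p = 0.21). Polg (chromosome 7, 79446231 to 79466362, minus strand), the catalytic subunit of the mitochondrial DNA polymerase, stood at 5.90 and 7.10 TPM with mCherry and 1.72 and 0.75 TPM with Rnaseh1. It too overlapped in SN oocytes, and its rescue value as deposited was 0.04 (limma adjusted p = 0.91). Lars, the cytosolic leucyl-tRNA synthetase, was at 13.1 and 16.95 against 5.05 and 5.11 TPM.

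The rest of the lower set shared no single role. Nqo2, a quinone reductase, stood at 4.43 and 7.44 TPM with mCherry and at 0.62 TPM and listed at 0 with Rnaseh1. Cln3 and Tmem192, both of the lysosome membrane, were at 15.6 and 13.1 against 4.20 and 2.12 TPM and at 16.3 and 11.8 against 4.82 and 3.99 TPM. Ptprt, a receptor tyrosine phosphatase, was at 15.6 and 9.68 against 3.05 and 2.02 TPM. Arl6ip4, a splicing-associated protein, was at 25.9 and 24.2 against 10.02 and 3.67 TPM, with the lower value in replicate 2. Rexo5, an RNA exonuclease, and Pwp1, a chromatin protein of ribosomal RNA gene transcription, stood at 2.22 and 1.73 and at 2.61 and 0.95 TPM with Rnaseh1, from 6.14 and 7.70 and from 6.91 and 6.96 TPM. Tmem234 was at 8.77 and 10.9 against 3.51 and 1.15 TPM.

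In the rescue set 5 of these 12 genes fell and 0 rose as deposited. Of all genes 46.2% fell there, so the share that fell was near the background. The 5 were Sbf1, Cln3, Rexo5, Tmem192 and Pwp1. Rexo5 and Tmem192 did not pass after median centring (limma adjusted p = 0.068 and 0.16) or quantile normalization (0.14 and 0.18), nor did Tmem192 and Sbf1 after removal of a GC trend (0.92 and 0.17). Other genes of the set rose under these scalings. Arl6ip4 passed on the higher side after median centring (0.66, limma adjusted p = 0.02), quantile normalization (0.82, 0.0083) and removal of a GC trend (1.79, 0.00026). Polg did so under the last 2 (0.79 and 1.2, limma adjusted p = 0.042 and 0.0097), as did Tmem234 (0.64 and 1.37, limma adjusted p = 0.048 and 0.0025). In SN oocytes 2 of the 12 had both Rnaseh1 libraries below both controls, beside 31.7% of all genes. The median GC content of the 12 was 49.8%.

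**Figure D2:**
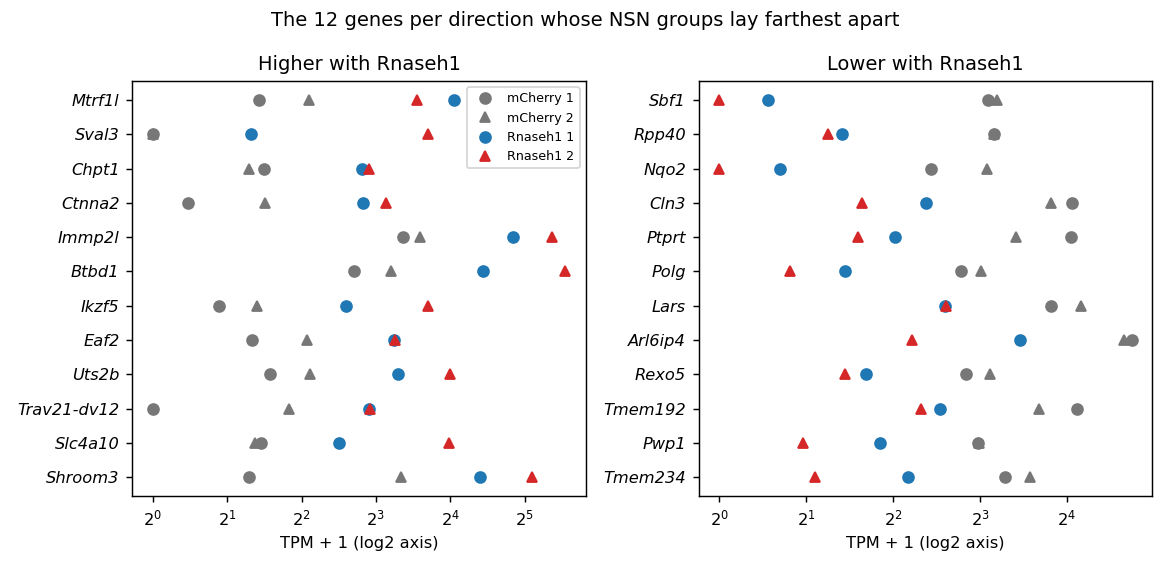
TPM + 1 (log2 axis) of the 12 genes per direction whose NSN groups lay farthest apart; each point is 1 library, gray with mCherry, blue for Rnaseh1 replicate 1 and red for Rnaseh1 replicate 2. The groups were apart by 1.05 to 1.45 on the left and by 1.12 to 2.54 on the right, and replicate 2 lay at the outer end for most genes.

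Whether the effect in NSN oocytes differed from that in SN oocytes was tested as the SN effect minus the NSN effect. None of the genes passed in limma (0, 0.0%), 288 had an unadjusted p under 0.05 (2.26%), and the median SE was 0.748. In the lower set the largest differences were those of Sbf1 at 2.66, Nqo2 at 2.16, Arl6ip4 at 1.94 and Rpp40 at 1.92, all with a limma adjusted p of 1.0. Because they were picked for low NSN values, these differences describe them and are no independent test. For Btbd1 and Mtrf1l the SN effect was -0.71 and -0.11 from the NSN effect (limma adjusted p = 1.0 and 1.0). No gene could be called particular to NSN oocytes.

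Taken one library at a time, replicate 1 lay close to the controls and replicate 2 far from them. Replicate 1 was at least 1 log2 unit above both mCherry libraries for 279 genes (2.19%) and below both for 152 (1.19%). Replicate 2 was above both for 801 genes (6.29%) and below both for 3762 (29.5%). Of all genes, 65 (0.51%) were above in both and 66 (0.518%) below in both, while 32 (0.251%) were above in replicate 1 and below in replicate 2, and 11 (0.0864%) the reverse. These counts share the mCherry libraries. With disjoint pairs of libraries, the differences of the 2 replicates correlated across 12736 genes at Pearson r = 0.08 and Spearman rho = 0.1 (replicate 1 against mCherry 1, replicate 2 against mCherry 2), and at -0.08 and -0.12 with the controls exchanged.

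The genes by which replicate 2 stood farthest from replicate 1 were taken from those with a mean of at least 20 TPM. Among those lower, the actin-binding gene Pfn1 stood at 623 and 462 TPM with mCherry, 528 TPM in replicate 1 and 5.52 TPM in replicate 2. Eif5a, a translation factor, was at 119 and 67.2 against 134 and 0.68 TPM, and Ppp1ca, a catalytic subunit of protein phosphatase 1, at 52.9 and 43.3 against 59.5 TPM and listed at 0. Mfap2, Fbxw4 and Sssca1 had the same order, with 0.57, 2.12 and 0.56 TPM in replicate 2 against 123, 213 and 103 TPM in replicate 1. For all 6 of them replicate 1 lay within or close to the range of the controls. Of the 5 that were tested in the rescue set, all fell there, Pfn1 by 3.31, Eif5a by 5.49 and Fbxw4 by 5.15 on the log2 scale (limma adjusted p = 2.2e-06, 4.3e-07 and 8e-07).

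Among those higher in replicate 2, Haus1, which belongs to augmin and helps microtubules branch in the spindle, stood at 114 and 159 TPM with mCherry, 108 TPM in replicate 1 and 574 TPM in replicate 2. Lyrm2, which helps assemble respiratory complex I, was at 40.9 and 39.4 against 34.3 and 229 TPM. The chemokine gene Ccl2 was at 23.3 and 15.9 against 20.6 and 193 TPM. Haus1, Lyrm2, Ccl2 and Arl5c rose in the rescue set, by 4.13, 2.53, 3.53 and 1.78 (limma adjusted p = 6.9e-07, 0.00011, 1.1e-05 and 0.00069). Pnrc2, a cofactor of RNA decay, did not pass there (0.22, limma adjusted p = 0.51), at 17.1 and 18.4 TPM with mCherry and 20.1 and 145 TPM with Rnaseh1 in NSN oocytes. The long RNA Snhg14, host of imprinted small nucleolar RNAs, ranged from 0.83 TPM in replicate 1 to 79.01 TPM in replicate 2 and did not pass in the rescue set (-0.59, limma adjusted p = 0.12).

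Replicate 2, and not replicate 1, resembled the other Rnaseh1 comparisons of the series, which use other libraries. Of the 801 genes at least 1 log2 unit higher in replicate 2, 686 were tested in the rescue set and 73.3% of those rose there, while 2.48% fell. Of the 3762 lower, 3644 were tested and 77.3% fell, while 4.39% rose. Over the 11800 genes tested in the NSN and in the rescue table, 21% rose and 45.9% fell. The corresponding genes of replicate 1 gave 21.9% that rose and 30.2% that fell among the 279 higher (215 tested), and 28.9% that fell and 18.2% that rose among the 152 lower (121 tested). Of the genes beyond 1 log2 unit in both replicates, 46.9% of 49 higher ones rose and 45.1% of 51 lower ones fell, the latter near the 45.9% of all genes. The shares depended on the scaling. After median centring they were 83.5% for the genes higher in replicate 2 and 60.3% for those lower, beside 34.8% and 30.7% of all genes, and after removal of a GC trend 74.6% and 53.6%, beside 28.3% and 30%. For replicate 1 median centring gave 37.2% of the higher genes that rose and 13.2% of the lower ones that fell, and removal of a GC trend 33% and 14.9%. For the genes beyond 1 log2 unit in both replicates, median centring gave 75.5% and 23.5%, quantile normalization 79.6% and 21.6%, and removal of a GC trend 61.2% and 15.7%, so that the share of lower genes that fell was under that of all genes. The lists differ in size: the genes higher and lower in replicate 2 made up 20.3% and 52.0% of all that rose and fell in the rescue set.

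Across genes, the difference of replicate 2 from the NSN mCherry mean correlated with the rescue effect at Pearson r = 0.63 and Spearman rho = 0.64 (11803 genes, with 1 identifier kept for each repeated symbol, where the shares above leave such symbols out), and that of replicate 1 at -0.04 and -0.05. With the SN effect the values were 0.6 and 0.62 for replicate 2 and -0.02 and -0.02 for replicate 1 (12736 genes). They are descriptions across genes that share a library, not tests. The SN value depended on the control. Measured from SN mCherry replicate 1, NSN replicate 2 correlated with the SN effect at 0.33 and 0.38, and from SN mCherry replicate 2 at 0.64 and 0.65. Which of these 2 controls is the odd one cannot be told from a pair. For replicate 1 these values were -0.03 and -0.02, and -0.01 and -0.02. The library with more Rnaseh1 RNA, 745 TPM against 229 TPM, was thus the one whose other genes did not follow the SN and rescue libraries. The shift between the NSN Rnaseh1 libraries was not confined to libraries with Rnaseh1. Deviations from the group mean correlated at -0.514 between NSN Rnaseh1 replicate 1 and SN mCherry replicate 1. Part of that shift thus also ran between the 2 SN controls, from replicate 2 to replicate 1. Its cause was not tested.

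**Figure D3:**
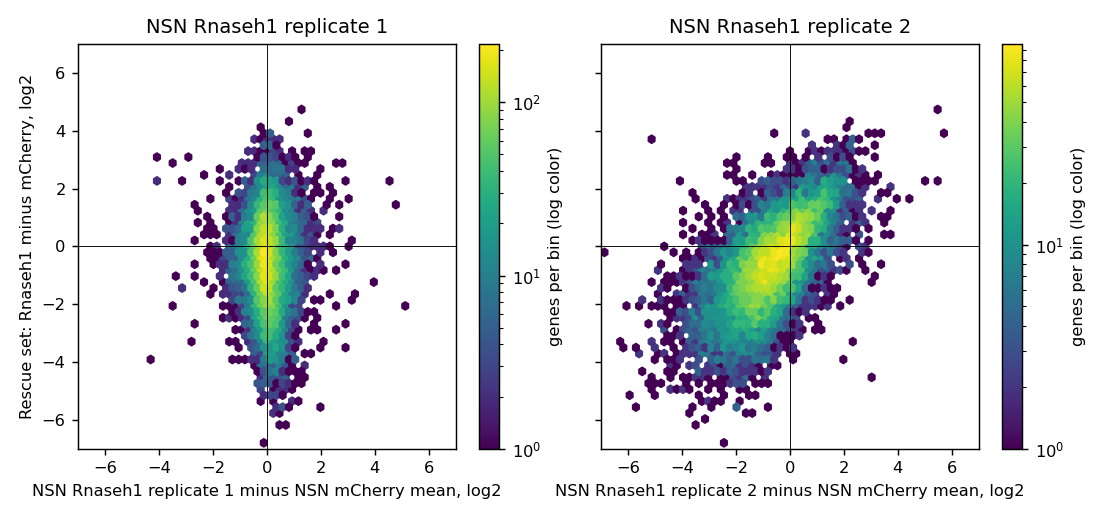
Log2 difference from the NSN mCherry mean (x axis) against the rescue effect of Rnaseh1 (y axis, log2) across genes tested in both tables, for NSN Rnaseh1 replicate 1 on the left and replicate 2 on the right; color gives the number of genes per bin on a log scale. The left cloud is upright (Pearson r = -0.04) and the right one slopes upward (0.63).

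The shift of replicate 2 followed transcript GC content. Among the 10% of genes poorest in GC (28.12 to 40.69%) its median difference from the controls was 0.14, and among the 10% richest (56.41 to 74.02%) it was -1.22. In replicate 1 these medians were -0.05 and 0.16, and between the mCherry libraries 0.06 and 0.02. Across 12725 genes the correlation with GC content was -0.36 (Spearman -0.38) for replicate 2, 0.1 (0.14) for replicate 1 and -0.03 (-0.04) between the controls. After a trend with GC content was removed from both sides, replicate 2 still correlated with the rescue effect at 0.56 (Spearman 0.54, 11800 genes) and with the SN effect at 0.53 (0.54), and replicate 1 at 0.02 (0.02) and 0.02 (0.05). After that removal all 12 genes named as farthest above mCherry and all 12 farthest below still had groups that did not overlap in NSN oocytes, by 0.86 to 1.95 and by 0.4 to 1.86.

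**Figure D4:**
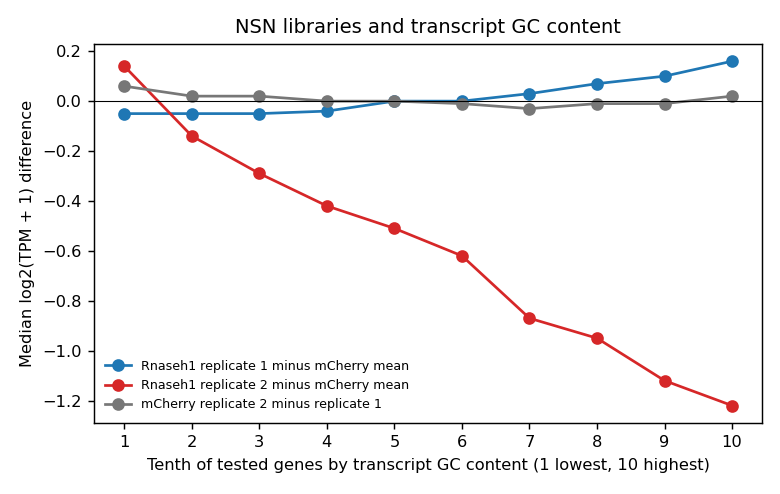
Median log2 difference (y axis) in bins that each hold 10% of the tested genes, by GC content of the transcript (x axis, from lowest to highest); lines are NSN Rnaseh1 replicate 1, replicate 2 and, as the background, mCherry replicate 2 minus replicate 1. Replicate 2 runs from 0.14 down to -1.22, while the other lines stay between -0.05 and 0.16.

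The gene groups below are described by each library's median difference from the NSN mCherry mean. Over all tested genes this was 0.01 for replicate 1 and -0.6 for replicate 2, with 10.3% of genes not overlapping and higher and 22.6% lower. No member of any of these groups passed over all genes, so values are given without a direction call.

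Oxidative phosphorylation, the respiratory chain and ATP synthase encoded in the nucleus, was the group in which the medians of the replicates were closest. Of its 78 tested genes (of 80 listed), 30 stood above both controls in both Rnaseh1 libraries (38.5%) and 7 below (8.97%). The median was 0.21 in replicate 1 and 0.2 in replicate 2, that is 0.2 and 0.8 above the median of all genes of the same library. In replicate 1, 66 of the 78 genes lay above the mCherry mean, and in replicate 2, 42. The distance of the group from all genes, 0.44 for both libraries together, kept its sign in every alternative run and ranged from 0.12 to 0.81. The group had been noted earlier in these same libraries, so its position is a description.

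The like medians came with a wide spread in replicate 2, where members ran from -4.79 to 2.57 while those of replicate 1 ran from -0.45 to 0.9. At the upper end, the complex I subunit Ndufa1 stood at 1158 and 1440.4 TPM with mCherry, 1923 TPM in replicate 1 and 7697 TPM in replicate 2 (log2 difference 1.57, SE 0.68). Ndufa4, a small subunit now assigned to cytochrome oxidase, was at 718 and 687 against 1026 and 1829 TPM, and Ndufc1 of complex I at 129 and 191 against 241 and 334 TPM. Atp5mpl, a small protein of ATP synthase, was at 1732 and 2235 against 2615 and 6668 TPM. All 4 had both Rnaseh1 libraries above both controls and rose in the rescue set, by 2.7, 1.85, 2.78 and 1.95 (limma adjusted p = 2.3e-06, 6.5e-06, 5.6e-06 and 3.1e-06). At the lower end Sdhd, a membrane anchor of complex II, stood at 300.1 and 193 against 271 TPM in replicate 1 and 7.73 TPM in replicate 2.

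Complexes were assigned by gene symbol, so Ndufa4 was counted with complex I and not with cytochrome oxidase, which is complex IV. By complex, 18 of 38 complex I genes were above both controls in both libraries and 2 below. Of 16 ATP synthase genes 6 were above and 0 below, and of 11 complex IV genes 3 above and 2 below. Of 9 complex III genes 3 were above and 3 below, and of 4 complex II genes 0 either way. Complex I had a median of 0.23 in replicate 1 and 0.33 in replicate 2, and complex II of 0.1 and -3.35. GC content separated the members in replicate 2 as it did all genes. The 13 members under 45% GC had a median of 0.94 there against -0.1 for the 3960 genes of that class, the 24 members from 45 to 50% of 0.2 against -0.54, and the 41 members at 50% or more of -0.23 against -1.04. In replicate 1 the 3 classes stood at 0.26, 0.16 and 0.24, against -0.05, -0.01 and 0.09. The median of the members was thus above that of their GC class in both libraries and all 3 classes.

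The other mitochondrial groups did not share this position. Of 77 mitochondrial ribosomal protein genes 10 stood above both controls in both libraries (13%) and 20 below (26.0%), with medians of 0.04 and -0.82. Of 29 genes that maintain and transcribe mitochondrial DNA, the process in which RNase H1 also serves, 3 stood above and 8 below, with medians of 0.02 and -0.76. Beside Polg, Mterf3, which limits mitochondrial transcription, stood at 75.8 and 52.8 TPM with mCherry and 38.2 and 36.9 TPM with Rnaseh1, with both replicates alike. Mgme1, a nuclease of mitochondrial DNA, was at 13.4 and 13.2 against 10.8 and 2.60 TPM, and the helicase gene Twnk at 12.4 and 13.5 against 12.2 and 1.59 TPM, where replicate 1 lay at the edge of the controls. Tfam, which packs mitochondrial DNA, was at 17.4 and 18.4 against 15.9 and 10.3 TPM. Of 15 mitochondrial translation factors, Mtrf1l was the one above both controls in both libraries, and its paralog Mtrf1 differed by 0.12 and 0.41 in the 2 replicates. No gene of the mitochondrial chromosome was analysed here.

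Among 33 R-loop and RNA:DNA hybrid factors, 4 including Rnaseh1 stood above both controls in both libraries (12.1%) and 13 below (39.4%), with medians of -0.09 and -0.44. The other ribonuclease H of the cell, RNase H2, has 3 subunits. Rnaseh2a, its catalytic subunit, stood at 30.7 and 48.9 TPM with mCherry, 65.7 TPM in replicate 1 and 7.74 TPM in replicate 2, so that the replicates lay on opposite sides of the controls. Rnaseh2b was at 16.7 and 13.6 against 8.20 and 11.1 TPM and Rnaseh2c at 25.1 and 34.9 against 22.3 and 6.72 TPM, below both controls in both libraries. Aqr, an intron-binding helicase, was at 6.48 and 5.83 against 4.80 and 0.79 TPM. Top1, which relaxes the DNA behind the polymerase, was at 64.6 and 75.7 against 68.05 and 53.4 TPM and overlapped. Of the THO complex, which packages new RNA, Thoc6 stood at 43.4 and 31.6 against 28.6 and 5.91 TPM and Thoc7 at 70.03 and 64.8 against 99.6 and 88.2 TPM, on opposite sides.

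The 52 tested oocyte-specific and maternal-effect genes (of 54) stood near all genes in replicate 1 and spread widely in replicate 2. Above both controls in both libraries were 5 (9.62%) and below 11 (21.2%), and the medians were 0.0 and -0.79. In replicate 2, 22 of the 52 were at least 1 log2 unit below both controls and 3 above (42.3% and 5.77%), while in replicate 1 the counts were 0 below and 1 above. The egg-coat gene Zp3 stood at 3308 and 2534 TPM with mCherry, 2795 TPM in replicate 1 and 328 TPM in replicate 2. Gdf9, a growth factor that the oocyte sends to granulosa cells, was at 5075 and 3339 against 4724 and 899 TPM, while its relative Bmp15 was at 1007 and 951 against 1125 and 1248 TPM. Among the highest genes of all, Omt2a stood at 3684 and 4550.2 against 3767 and 14139 TPM and Dppa3, which protects the maternal genome from demethylation, at 10745 and 12045 against 9862 and 21364 TPM. The oocyte-secreted gene Oosp3 was above both controls in both libraries, at 2812 and 3332 TPM against 2089 and 1967.

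The subcortical maternal complex had members on both sides of the controls. Of its 8 tested genes 1 stood above and 3 below both controls in both libraries, with medians of -0.02 and -1.12. Beside Khdc3, Nlrp5, its scaffold known as MATER, stood at 578 and 444 TPM with mCherry and 434 and 236 TPM with Rnaseh1, and Nlrp2 at 183 and 136 against 130.4 and 53.7 TPM. Padi6 was at 581 and 514 against 548 and 126 TPM, within the controls in replicate 1. Ooep stood above both controls, at 673 and 761 against 549 and 593 TPM, and Tle6 was at 1528 and 1671 against 1657 and 1832 TPM.

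Of 42 genes of meiotic maturation and the cell cycle, 2 stood above both controls in both libraries (4.76%) and 6 below (14.3%), beside 10.3% and 22.6% of all genes. The medians were 0.0 in replicate 1 and -1.07 in replicate 2, where 20 of the 42 were at least 1 log2 unit below both controls (47.6%, against 29.5% of all genes). Mos, the kinase that holds the egg at metaphase of the second division, stood at 293 and 224 TPM with mCherry, 313 TPM in replicate 1 and 4.91 TPM in replicate 2. Aurkc, an Aurora kinase of germ cells, was at 439 and 290.1 against 392 and 15.3 TPM, Plk1 at 38.3 and 35.7 against 46.5 and 4.20 TPM, and Wee2, which keeps the oocyte arrested, at 675 and 542 against 1041 and 114 TPM. For none of these 4 was replicate 1 below the controls. Ccnb2, a cyclin B, was at 429.8 and 357 against 337 and 74.5 TPM, and Cks2, a partner of CDK1, at 2329 and 2789 against 3345 and 9652 TPM, with both replicates on one side.

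Elongating RNA polymerase II carries the factors that place H3K36me3, one of the histone marks the study is about. Of 34 elongation and pause-release genes 4 stood above and 11 below both controls in both libraries (32.4%), with medians of 0.0 and -0.74. Leo1 of the PAF1 complex was at 93.3 and 86.8 TPM with mCherry and 66.5 and 36.9 TPM with Rnaseh1, and Cdk9, the kinase that releases paused polymerase, at 5.23 and 2.50 against 1.58 and 0.51 TPM. Supt6, the histone chaperone of the rescue set, was at 4.14 and 3.95 against 3.82 and 0.72 TPM. Of 34 RNA polymerase II genes 6 stood above and 9 below, with Polr2k at 804 and 949 against 1201 and 3143 TPM and the initiation factor gene Gtf2e2 at 99.1 and 103 against 77.02 and 20.2 TPM.

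Of the 9 H3K36 enzymes 1 stood above and 1 below both controls in both libraries, with medians of 0.06 and -1.32. Setd2, which places most H3K36me3, stood at 43.1 and 55.3 TPM with mCherry and 57.9 and 35.5 TPM with Rnaseh1. Nsd1, which places H3K36me2, was at 25.6 and 27.8 against 21.9 and 3.11 TPM. Of 16 genes of H3K4 methyltransferase complexes 0 stood above and 2 below, with medians of 0.06 and -0.67. The core subunit Ash2l was at 23.7 and 22.2 against 19.8 and 4.82 TPM, Cxxc1, which binds unmethylated CpG sites, at 10.6 and 10.2 against 10.7 and 2.54 TPM, and Dpy30 at 795 and 927 against 787 and 2517 TPM. The 5 H3K4 demethylases had medians of 0.0 and 0.79, with Kdm5a at 5.94 and 11.4 against 8.30 and 25.8 TPM and Kdm1b at 106 and 162 against 121 and 227 TPM. For each of the 7 enzymes and subunits named here replicate 2 lay farther from the mCherry mean than replicate 1.

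The nucleolus gives the oocyte stages their names. Of 33 nucleolar and ribosome-assembly genes 3 stood above and 11 below both controls in both libraries (33.3%), with medians of 0.06 and -0.93, and of 34 genes of RNase P, RNase MRP and RNA polymerases I and III 2 above and 13 below (38.2%), with -0.01 and -0.81. Npm2, a chaperone that organizes the oocyte nucleolus, stood at 1705 and 1502 TPM with mCherry and 1589 and 352 TPM with Rnaseh1. Polr1c, a subunit shared by polymerases I and III, was at 56.9 and 44.2 against 30.4 and 3.65 TPM, Twistnb of polymerase I at 17.5 and 13.8 against 10.4 and 6.28 TPM, and Wdr43 at 51.5 and 47.5 against 35.6 and 21.6 TPM. Nop10, part of the particles that modify ribosomal RNA, stood on the other side, at 61.9 and 81.8 against 117 and 173 TPM. Polr1c, Twistnb, Wdr43 and Nop10 had both Rnaseh1 libraries outside the controls, with replicate 2 the farther.

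Of 19 immediate-early and stress genes 2 stood above and 9 below both controls in both libraries (47.4%), with medians of -0.17 and -0.8. The chaperone genes Hspa5 and Hspb1 were at 214 and 166 against 134 and 76.4 TPM and at 11.1 and 11.04 against 7.80 and 1.46 TPM, and Ddit3, of the unfolded protein response, at 289 and 258 against 233 and 109.96 TPM. The group lay -0.19 from all genes and on that side in every alternative run. Of 42 DNA damage and repair genes 1 stood above and 13 below (31.0%), with medians of -0.07 and -0.92. Cdkn1a, a target of p53, was at 0.84 and 2.26 against 1.65 and 0 TPM. Neither group held a gene above both controls by 1 log2 unit in both libraries.

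Of 38 genes of RNA storage, decay and deadenylation 2 stood above and 10 below (26.3%), with medians of -0.01 and -0.71. Pabpc1, a poly(A)-binding protein, stood at 27.9 and 31.1 TPM with mCherry and 15 and 2.22 TPM with Rnaseh1 in NSN oocytes, but at 10.1 and 5.36 against 17.1 and 16.03 TPM in SN oocytes, on the other side. The SN effect minus the NSN effect was 3.15 (unadjusted p = 0.017, limma adjusted p = 1.0). Its egg form Pabpc1l was at 55.5 and 51.2 against 42.6 and 20.4 TPM. Of 10 nucleic-acid sensing genes 0 stood above and 4 below, with Adar, which edits double-stranded RNA, at 9.04 and 9.84 against 7.91 and 0.64 TPM. Of 17 apoptosis genes 2 stood above and 4 below, with Bcl2l10, the abundant oocyte member of the BCL2 family, at 2963 and 3079 against 3047 and 448 TPM.

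Replication-dependent histones were the group in which replicate 1 stood farthest above its own background, with a median of 0.43 over 32 tested genes (of 67 listed) against -0.78 in replicate 2. Above both controls in both libraries were 2 and below 2. Hist1h2bc, the most abundant member, was at 577 and 594 TPM with mCherry and 693 and 356 TPM with Rnaseh1, and 25 of the 32 stayed under 30 TPM in all 4 NSN libraries. Their near-identical copies and, for most, RNAs without a poly(A) tail make these values uncertain. Of 76 listed cytosolic ribosomal protein genes only 4 were matched by symbol, with medians of 0.19 and -1.13. These 4 cannot stand for the family. Markers of theca, stroma, endothelial and blood cells, with 3 tested genes (of 17 listed), had medians of -0.35 and -1.04.

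**Figure D5:**
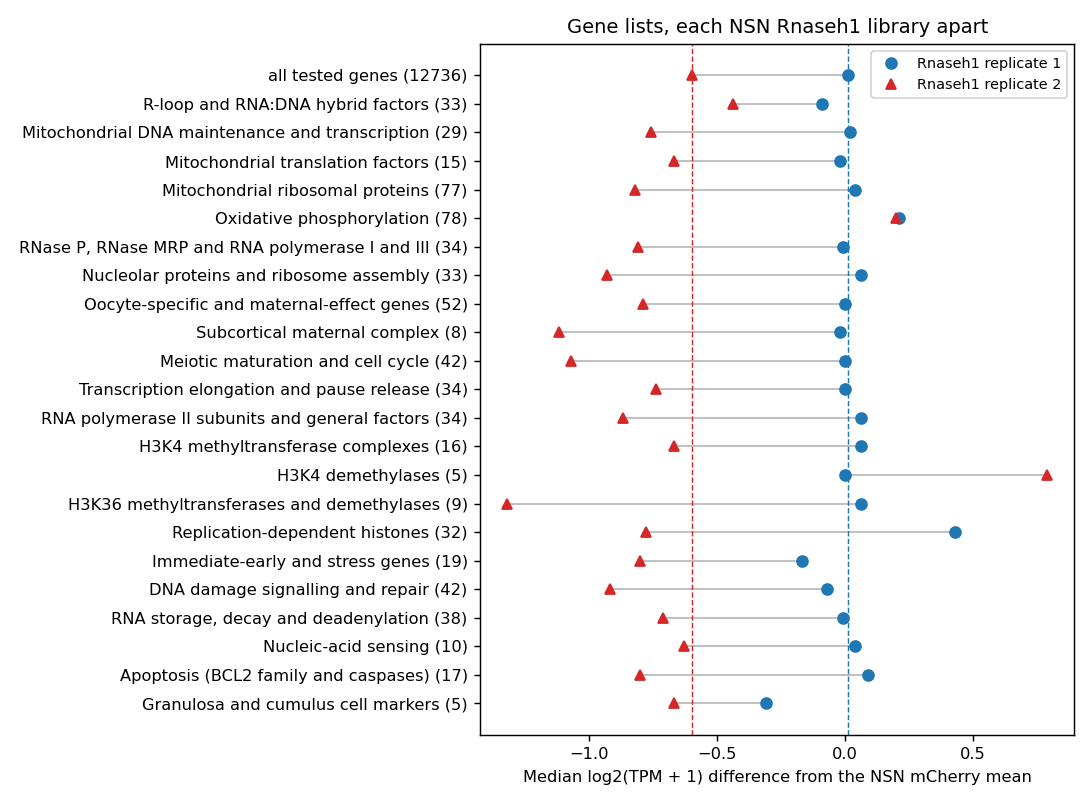
Median log2 difference from the NSN mCherry mean (x axis) of each gene group with the number of tested genes in brackets (y axis); blue circles are Rnaseh1 replicate 1 and red triangles replicate 2, joined by a line, and dashed lines mark the medians of all tested genes. Oxidative phosphorylation has its points together at 0.21 and 0.2, while replicate 2 lies left of replicate 1 for all groups shown except the H3K4 demethylases.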

How the data were processed

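The series holds 14 libraries in 7 groups of 2, deposited as 2 tables of 8 and 6 libraries. Per the labels' protocols, polyadenylated RNA was reverse transcribed with SuperScript II, amplified with KAPA HiFi and made into libraries with the Vazyme TD503 kit. The submitters' processing notes list RSEM 1.3.3 and STAR 2.7.0d, then DESeq2, Trim Galore 0.6.7 and the build mm10, with no role for any. The deposited values are TPM from the authors' own processing, which keep no depth, and whether strand was used is not given in the sources used here. Overlapping, antisense and near-identical genes are therefore uncertain.

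Of 35389 gene identifiers, 35319 had a symbol and 70 had none. GC content, biotype and positions came from GENCODE M21 (GRCm38), in which 34611 identifiers were found with their version. The rescue table lists 35341 symbols.

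Genes with at least 1 TPM in at least 2 libraries of their table were tested (12736, and 12859 in the rescue table) on log2(TPM + 1) with limma 3.58.1 in R 4.3.3 (moderated variances with a trend). All groups of a table entered 1 fit, and p-values were adjusted by Benjamini-Hochberg over all tested genes with a threshold of 0.05. Fold changes on this scale understate the change of low genes. The fit was also run on simulated data in which all groups shared 1 spread per gene. The unlike NSN Rnaseh1 libraries were not simulated, so that run says nothing about them. Alternatives were a pseudocount of 0.1 or 5, no filter or a filter at 5 TPM, median centring, quantile normalization, removal of a GC trend, rescaling without Rnaseh1, a replicate block, library weights, robust moderation, the NSN libraries alone, and leaving out each library.

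The text names 4 genes fixed for this comparison, and 12 genes per direction whose groups lay farthest apart with a mean of at least 5 TPM in the higher group, leaving out gene models and pseudogenes. It further names 6 genes per direction with the largest difference between the Rnaseh1 libraries and a mean of at least 20 TPM, and up to 4 genes per list with the smallest p. Other genes were named after their values were seen. These are Sdhd, Zp3, Gdf9, Bmp15, Omt2a, Dppa3, Ooep, Tle6, Mos, Plk1, Wee2, Setd2, Supt6, Top1, Tfam, Mtrf1, Rnaseh2a, Rnaseh2b, Thoc7, Cdkn1a, Hist1h2bc and Npm2. The genes and lists were chosen with earlier results of these data known. The Supt6 rescue effect was not analysed here, and some list members are not reported here.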

Additional observations from a re-analysis of the deposited data

How the results depend on the processing

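With 2 libraries a group every call is limited, and depth is unknown. The NSN comparison called 0 genes in each alternative except without Rnaseh1 replicate 1, so leaving out 1 library gave 0 to 1152. For the SN effect minus the NSN effect the range was 0 to 1 (Gm10226, -9.7, limma adjusted p = 0.032, without NSN Rnaseh1 replicate 2). Leaving out SN mCherry replicate 2 as well, added after seeing the data, gave 2. The rescue set gave 7080 to 8460 genes without 1 library, against 8553.

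The 65 higher and 66 lower genes apart by 1 log2 unit became 145 and 205 with a pseudocount of 0.1, 4 and 5 with a pseudocount of 5, and 29 and 25 with a filter at 5 TPM. Median centring gave 102 and 29, quantile normalization 88 and 35, and removal of a GC trend 94 and 34. The counts without overlap were 2235 and 1906 after median centring, 2098 and 2058 after quantile normalization, and 2207 and 2223 after removal of a GC trend. These settings were applied to the counts after seeing the data.

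At an unadjusted p under 0.05 the NSN comparison gave 353 genes, and 251 with the replicate number as a block, which called 0 after adjustment. The block gave 0 for the difference between stages and 8517 genes in the rescue set, and changed no other count by over 1.5 times. Deviations of same-numbered libraries correlated at 0.169 between the NSN groups and at -0.514 between NSN Rnaseh1 and SN mCherry. With 2 libraries a group the numbers are taken as names. The count ranged from 127 to 3890 over the left-out libraries, was 264 with library weights, 190 for the NSN libraries alone, 692 with no filter and 162 with a filter at 5 TPM.

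Of 2629 NSN values of 126 genes over the alternatives, 2506 kept their sign without passing, 54 passed with the same sign (all without Rnaseh1 replicate 1) and 69 changed sign without passing. Of 410 rescue values, 344 kept direction and call. Those that reversed were Shroom3 after median centring (0.51), quantile normalization (0.67) and removal of a GC trend (1.64), Tmem234 under the last 2 (0.64 and 1.37), Khdc3 (0.93) and Tmem192 (0.03) after removal of a GC trend. The cause was not tested. Leaving out 1 rescue library ended the calls of Chpt1, Eaf2, Khdc3, Rexo5 and Slc4a10. The distance of the H3K4 demethylases from all genes went from 0.63 to -0.01 without NSN Rnaseh1 replicate 2.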
